A study of Mus musculus with 4 samples.

Results

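The genes described here are 10 genes of the TGF-β system: the ligand genes Tgfb1, Tgfb2 and Tgfb3, the receptor genes Tgfbr1, Tgfbr2 and Tgfbr3, the latent TGF-β binding protein genes Ltbp1, Ltbp2 and Ltbp4, and Tgfbi, which encodes a TGF-β-induced matrix protein. They were chosen by symbol in the platform annotation, and they are 10 of 12393 genes and 19 of 20380 probe sets with a symbol of their own. All 10 were found. For each gene the brightest probe set, by mean log2 signal over the 4 arrays, is given first, and the other probe sets of 4 of the genes are given beside it.

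RNA was measured on 4 Affymetrix mouse arrays. The 2 bulge arrays held living GFP-positive cells of back skin that were high in surface α6 integrin and CD34, the markers used to sort basal bulge cells of the follicle. The 2 total arrays held all living GFP-positive cells of back skin. All mice were K14-GFP-actin animals at postnatal day 49, so both groups carried a GFP-actin fusion driven by the keratin 14 promoter of basal keratinocytes. The design text places this age in telogen, the resting phase of the hair cycle. Nothing in the labels says that bulge cells were removed from the total sort, so each difference sets bulge cells against a mixture that contains them. The labels do not say whether replicates came from separate animals, so the p-values reflect the variation among these arrays alone, which may be technical.

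TGF-β ligands are made as latent complexes. The ligand stays bound to its propeptide, and the propeptide is linked to a latent TGF-β binding protein that anchors the complex in the matrix. Once released, the ligand binds TGFBR2, which recruits and phosphorylates TGFBR1, and TGFBR1 activates SMAD2 and SMAD3. TGFBR3, also called betaglycan, presents ligand and is needed most for TGF-β2. In the hair follicle TGF-β signalling is known for its roles in the entry of stem cells into the growth phase and in regression.

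Of the latent binder genes, Ltbp2 signal was at least 17.3-fold higher in bulge cells and was called in the fit whose variance follows intensity, but not in the one without that trend. Ltbp1 signal was at least 2.18-fold higher and passed neither fit. Of the ligand genes, Tgfb2 was at least 2.28-fold lower in bulge cells and Tgfb3 at least 1.5-fold lower, and neither gene passed. These bounds carry no sampling error. The 95% interval of the log2 difference was -2.43 to -0.18 for Tgfb2 before adjustment, and for Tgfb3 it was -1.62 to 0.23, which included 0. The receptor genes Tgfbr1 and Tgfbr2 had signals from 466.8 to 2140.5 units, with differences of opposite sign whose 95% intervals included 0.

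Every difference is bulge minus total on the log2 scale, with n = 2 arrays per group. The test was limma on log2 signal, two-sided, and p-values of all 12393 genes were adjusted by Benjamini-Hochberg and called at 0.05. It called 0 of the 10 genes, where 0.0% of all genes were called higher and 0.0% lower. The smallest adjusted p of any gene was 0.0729. Before adjustment, p was under 0.05 for 1297 genes (10.5%). With a variance that follows signal intensity (the trended fit), limma called 1 of the 10 higher, Ltbp2, and 0 lower, where 0.557% of all genes were called higher and 0.524% lower. The words rose and fell are used of genes called in the trended fit alone. At an unadjusted p under 0.05 in the fit without a trend, 2 of the 10 were higher (Ltbp1 and Ltbp2; 5.18% of all genes) and 1 was lower (Tgfb2; 5.29% of all genes). An exact permutation test of 2 arrays against 2 cannot go below p = 0.333 and was not used for calls.

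Arrays of the groups did not overlap for 7 of the 10, where 38.5% of all genes did not. Ltbp1, Ltbp2, Ltbp4, Tgfbr1 and Tgfbi were higher on both bulge arrays, where 18.0% of all genes were, and Tgfb2 and Tgfb3 were lower on both, where 20.5% of all genes were. Tgfb1, Tgfbr2 and Tgfbr3 overlapped. The median difference over the 10 was 0.42, beside -0.02 over all genes, whose quartiles were -0.41 and 0.38.

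The file carries no detection flags, so a background level was set at a log2 signal of 7.18 (144.8 signal units), the 95th percentile of 64 olfactory, vomeronasal and taste receptor genes. Of the 10 genes, 4 lay above it on all 4 arrays (Tgfbr1, Tgfbr2, Ltbp4 and Tgfbi). Another 4 (Tgfb2, Tgfb3, Ltbp1 and Ltbp2) lay above it on some arrays, and Tgfb1 and Tgfbr3 on none. A fold written as at least N-fold compares the brighter group with the dimmer one, each of whose arrays is set no lower than background, and it carries no sampling error.

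**Figure D1:**
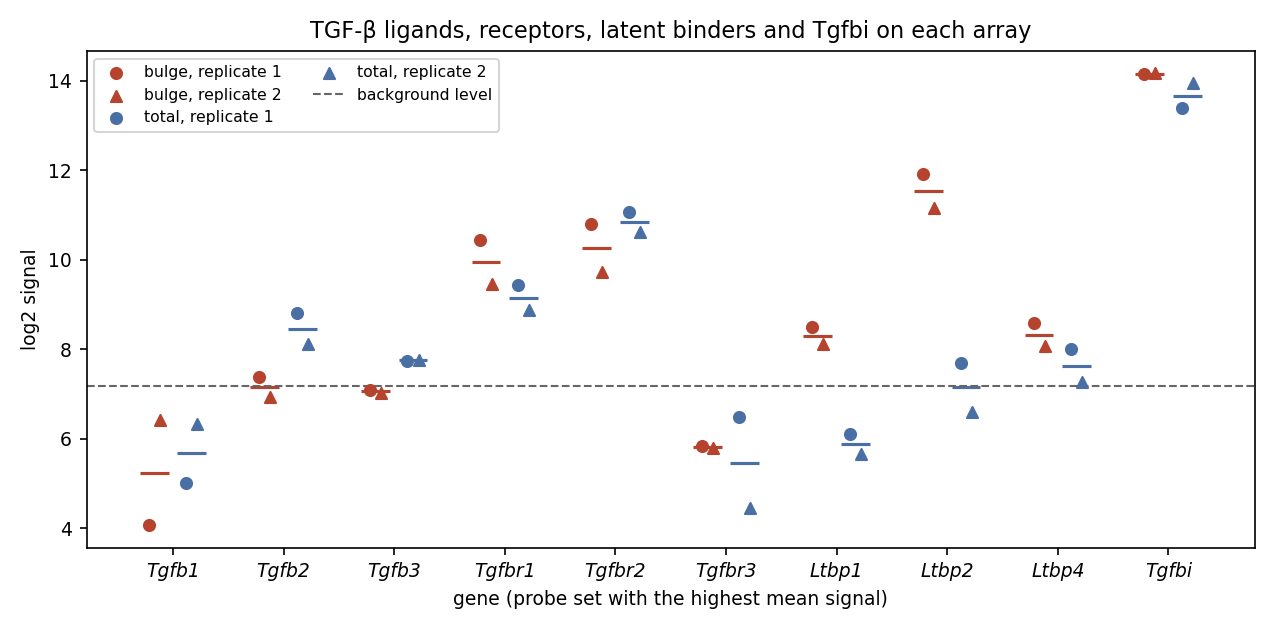
Log2 signal of each gene's brightest probe set (y axis) for the 10 genes (x axis), with bulge arrays in red on the left and total arrays in blue on the right of each gene, circles for replicate 1, triangles for replicate 2, lines for group means and a dashed line at the background level of 7.18. Ltbp1 and Ltbp2 are higher on both bulge arrays and Tgfb2 and Tgfb3 lower on both, and Tgfb1 and Tgfbr3 lie below the background level on all 4 arrays.

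The array labels were checked against markers. Over all genes, 18.0% were higher and 20.5% were lower on both bulge arrays, and the marker counts are read beside these shares. All 10 bulge markers examined had both bulge arrays above both total arrays, and the trended fit called 5 of them. Differences were small for Krt15 (0.36, limma adjusted p 0.893) and Gas1 (0.87, 0.572). Cd34, a bulge marker and a gene of the gate, had signals of 15697 and 14034 on the bulge arrays and 844.0 and 1144.2 on the total arrays. The gate's other gene, Itga6 for α6 integrin, went the other way. It had 3312.3 and 1692.8 on the bulge arrays and 5641.9 and 3491.4 on the total arrays, without overlap. The Itga6 difference was -0.91 (limma adjusted p 0.686), and its other probe set gave -1.29. The summed signal of 10 myeloid markers was 1299 and 1693 on the bulge arrays and 11790 and 13135 on the total arrays, with 9 of the 10 lower without overlap. That of 8 T cell markers was 393 and 507 on the bulge arrays and 2133 and 3525 on the total arrays, with 7 of the 8 lower without overlap. Of 10 fibroblast markers, 7 were below background on all 4 arrays, Pdgfra, Pdgfrb, Col3a1, Lum, Dcn, Dpt and Twist2, and the summed signal was 4604 and 2148 on the bulge arrays and 1749 and 2106 on the total arrays. Col1a2, a type I collagen gene and the brightest of the list in bulge cells, had 3851.7 and 1541.3 on the bulge arrays and 342.9 and 285.6 on the total arrays, a 7.79-fold higher mean with a limma adjusted p of 0.129. It was higher on both bulge arrays, as Ltbp1 and Ltbp2 were, and its part in their differences was not tested. Thy1, with 130.7 and 294.1 on the bulge arrays and 877.5 and 1444.5 on the total arrays, is also a T cell marker and gave most of the total sum. Of 8 endothelial markers, 7 were below background on all 4 arrays. Of 9 basal markers, 3 were higher and 1 was lower without overlap, where 18.0% and 20.5% of all genes were. Of 8 suprabasal markers, 2 were lower without overlap, Krt1 and Ivl, where 20.5% of all genes were, and Ivl was below background on all 4 arrays. Krt1 had 699.1 and 1117.7 on the bulge arrays and 8379.0 and 9221.5 on the total arrays. It fell 9.94-fold (trended limma adjusted p 0.0297), and the other 7 were not called. The summed suprabasal signal was 43870 and 84395 on the bulge arrays and 54200 and 84518 on the total arrays. These sums came mostly from the brightest genes, Krt10, Dmkn and Lor, and Lor had 5965.7 and 25480.5 on the bulge arrays. A label field gives the same cell type, basal bulge stem cells, for all 4 arrays, and groups follow the titles. Over 5855 genes above background on all arrays, the difference between replicates had an SD of 0.866 for bulge and 0.495 for total.

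Promoters are shown for Ltbp2, Ltbp1 and Tgfb2, the genes with an unadjusted limma p under 0.05, of which the trended fit called only Ltbp2. The fitted differences of Ltbp2 and Ltbp1 were positive and that of Tgfb2 negative, and the start regions can be read side by side. Sequences are RefSeq windows of GRCm38.p6, 250 bases before to 50 after an annotated start, and 8 of the 10 genes matched, with 12 windows. Tgfb3 and Tgfbr3 had no entry. Capitals mark matches on either strand. The SMAD-binding element was searched as CAGACA, the AP-1 motif as TGANTCA, the GC-rich SMAD motif as GGCGCC and the TATA box as TATAAA, and no matches overlapped. The Ltbp2 window is chr12:84876442-84876741, minus strand. The Ltbp1 windows are chr17:75005279-75005578 and chr17:75178531-75178830, plus strand, and the Tgfb2 window is chr1:186705940-186706239, minus strand.
Ltbp2: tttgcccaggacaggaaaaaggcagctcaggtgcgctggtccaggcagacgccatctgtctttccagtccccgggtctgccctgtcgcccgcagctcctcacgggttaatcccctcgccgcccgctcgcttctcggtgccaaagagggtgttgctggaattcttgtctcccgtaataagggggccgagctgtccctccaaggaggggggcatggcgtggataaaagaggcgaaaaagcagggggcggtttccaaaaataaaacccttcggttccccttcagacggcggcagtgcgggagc
Ltbp1, upstream start: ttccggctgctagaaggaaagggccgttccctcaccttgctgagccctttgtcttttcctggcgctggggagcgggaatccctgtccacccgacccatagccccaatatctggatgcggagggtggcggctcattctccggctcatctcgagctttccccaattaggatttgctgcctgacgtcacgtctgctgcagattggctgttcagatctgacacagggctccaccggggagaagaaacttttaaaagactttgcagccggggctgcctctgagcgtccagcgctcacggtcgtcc
Ltbp1, downstream start: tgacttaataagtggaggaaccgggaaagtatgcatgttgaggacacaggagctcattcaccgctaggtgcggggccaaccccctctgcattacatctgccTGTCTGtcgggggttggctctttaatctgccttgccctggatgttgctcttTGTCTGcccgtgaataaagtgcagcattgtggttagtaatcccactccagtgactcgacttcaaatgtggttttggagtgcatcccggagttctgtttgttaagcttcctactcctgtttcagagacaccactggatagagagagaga
Tgfb2: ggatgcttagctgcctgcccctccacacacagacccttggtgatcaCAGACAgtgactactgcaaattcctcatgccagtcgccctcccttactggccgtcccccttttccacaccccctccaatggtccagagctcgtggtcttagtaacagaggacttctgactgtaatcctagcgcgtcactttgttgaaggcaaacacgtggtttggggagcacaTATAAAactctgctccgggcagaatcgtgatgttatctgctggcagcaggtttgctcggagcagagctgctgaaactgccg

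Of all 32851 windows, 21.0% held the SMAD-binding element, 7.81% the AP-1 motif, 11.9% the GC-rich motif and 13.6% the TATA box. The Tgfb2 window held the SMAD-binding element 204 bases before the start and the TATA box 31 bases before it. The downstream Ltbp1 window held the SMAD-binding element on the minus strand at 2 places, 149 and 98 bases before the start, and the upstream Ltbp1 window and the Ltbp2 window held none of the 4 motifs. CpG dinucleotides numbered 20 in the Ltbp2 window, 17 and 7 in the upstream and downstream Ltbp1 windows and 10 in the Tgfb2 window. Which Ltbp1 start was used was not determined.

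Tgfb2 encodes the ligand that depends most on betaglycan. Its brightest probe set had signals of 166.3 and 122.8 on the bulge arrays and 449.7 and 278.2 on the total arrays. Both total arrays lay above both bulge arrays, and bulge replicate 2 was below background. The difference was -1.31 ± 0.44 (SE; 95% interval -2.43 to -0.18), with a limma adjusted p of 0.380 and 0.302 in the trended fit.

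The second Tgfb2 probe set had signals of 88.7 and 55.5 on the bulge arrays and 201.9 and 139.8 on the total arrays, a difference of -1.26, and total replicate 1 was its only array above background. The third probe set was below background on all 4 arrays, with a difference of -0.45. Its groups overlapped.

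Tgfb3, the third ligand gene, had signals of 137.1 and 131.0 on the bulge arrays and 215.2 and 218.1 on the total arrays. Both bulge arrays were below background and both total arrays above it, with replicates closer together than for any other of the 10 genes in the total group. The difference was -0.69 ± 0.37 (SE; interval -1.62 to 0.23), with a limma adjusted p of 0.649.

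Tgfb1, the ligand gene expressed widely in blood cells and epithelia, had signals of 16.8 and 85.5 on the bulge arrays and 32.5 and 81.2 on the total arrays. All 4 were below background and the groups overlapped, so no fold is given. Its 1 probe set gave a difference of -0.44, with an interval from -2.74 to 1.87. Its sign turned without bulge replicate 1 (0.73) and without total replicate 2 (0.22).

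Myeloid and T cell markers were lower on the bulge arrays, as given above, on the same arrays where Tgfb2 and Tgfb3 were lower. Of 8 infundibulum and sebaceous markers, 6 were lower without overlap, where 20.5% of all genes were. Their summed signal was 7086 and 9766 on the bulge arrays and 33550 and 36049 on the total arrays. Of 7 melanocyte markers, 6 were lower and 1 was higher without overlap, where 20.5% and 18.0% of all genes were. The higher one, Mitf, had 6125.2 and 2459.8 on the bulge arrays and 985.5 and 378.8 on the total arrays. It gave most of the summed melanocyte signal of the bulge arrays, 7077 and 3328, beside 2893 and 2111 on the total arrays. The part of any of these cell types in the Tgfb2 and Tgfb3 differences was not tested. In sorted populations, fewer cells of a type and less RNA per cell cannot be told apart.

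Tgfbr1 encodes the type I receptor kinase that signals to SMAD2 and SMAD3. Its brightest probe set had signals of 1397.3 and 711.4 on the bulge arrays and 697.1 and 466.8 on the total arrays. The lower bulge array stood just above the higher total array. The difference was 0.81 ± 0.51 (SE; interval -0.48 to 2.09), 1.75-fold higher in bulge cells, with a limma adjusted p of 0.735. The other 2 Tgfbr1 probe sets were below background on all 4 arrays, with differences of -0.22 and 0.92.

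Tgfbr2 encodes the type II receptor that binds ligand first. Signals were 1778.8 and 853.1 on the bulge arrays and 2140.5 and 1581.0 on the total arrays. The groups overlapped, since bulge replicate 1 lay above total replicate 2. The difference was -0.58 ± 0.51 (SE; interval -1.87 to 0.71), 1.49-fold lower in bulge cells, with a limma adjusted p of 0.845. Without bulge replicate 2 the difference was -0.05 and without bulge replicate 1 it was -1.11.

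The other 2 Tgfbr2 probe sets were below background on all 4 arrays, with differences of -1.01 and -0.71. Tgfbr3, the gene of the coreceptor betaglycan, was also below background on all 4 arrays, with signals of 57.5 and 55.5 on the bulge arrays and 89.5 and 21.9 on the total arrays. The total arrays lay on either side of the bulge arrays. Without total replicate 2 its difference of 0.35 turned to -0.66.

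Ltbp2 encodes a fibrillin-like microfibril protein of the latent binder family, and unlike its relatives it is not known to bind the latent ligand. Its 1 probe set had signals of 3906.8 and 2286.2 on the bulge arrays and 206.4 and 97.5 on the total arrays. Both bulge arrays were more than 10 times the brighter total array, and total replicate 2 was below background. The difference was 4.40 ± 0.55 (SE; interval 3.003 to 5.79), with a limma adjusted p of 0.0808.

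In the trended fit Ltbp2 rose, with a limma adjusted p of 0.0297. After a filter on dim genes in the fit without a trend its adjusted p was 0.0224, which is not separate support. The filter used the mean log2 signal over the 4 arrays. Ltbp2 passed it through its bulge arrays (mean 11.55), since its total mean of 7.15 was below background. The filter left 6849 genes, with 1.01% called higher and 1.07% called lower, and it kept 7 of the 10 genes, leaving out Tgfb1, Tgfbr3 and Ltbp1. The trended call ended without total replicate 1 (adjusted p 0.106) and without total replicate 2 (0.122), and so did all calls of that fit, while the difference was 4.94 and 3.86.

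Ltbp1 encodes a latent binder that links the small latent complex to fibronectin and fibrillin fibres. Its 1 probe set had signals of 359.6 and 276.1 on the bulge arrays and 68.4 and 50.7 on the total arrays. Both bulge arrays were above background and both total arrays below it. The difference was 2.42 ± 0.41 (SE; interval 1.39 to 3.45), with a limma adjusted p of 0.110 and 0.0698 in the trended fit. Set at no lower than background on any array, its difference was 1.12, beside -1.19 for Tgfb2.

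Ltbp4 encodes a latent binder that carries TGF-β1 and takes part in elastic fibre assembly. It had signals of 385.2 and 268.5 on the bulge arrays and 257.1 and 153.9 on the total arrays. The lower bulge array stood just above the higher total array. The difference was 0.69 ± 0.46 (SE; interval -0.47 to 1.86), 1.62-fold higher in bulge cells, with a limma adjusted p of 0.753.

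Ltbp3, the remaining gene of the family, is outside the 10 and is named to complete it, after its values were seen. It had signals of 11177.5 and 7781.9 on the bulge arrays and 3324.0 and 3132.7 on the total arrays, without overlap. The difference was 1.53 ± 0.40 (SE), 2.89-fold higher in bulge cells, with a limma adjusted p of 0.241, and its other probe set gave 1.28. Whether the 4 latent binder genes differ from each other in the size of their difference was not tested.

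Tgfbi encodes a secreted matrix protein that binds collagens and integrins. Its brightest probe set had signals of 18252.3 and 18391.3 on the bulge arrays and 10730.9 and 15814.9 on the total arrays. Both bulge arrays lay above both total arrays, and the total arrays were farther apart than the bulge arrays. The difference was 0.49 ± 0.40 (SE; interval -0.53 to 1.52), 1.41-fold higher in bulge cells, with a limma adjusted p of 0.826.

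All 4 Tgfbi probe sets were above background on all arrays, and they gave different sizes. The third by signal had 9893.0 and 7396.6 on the bulge arrays and 4184.5 and 4208.4 on the total arrays, a difference of 1.03, or 2.04-fold. The other 2 gave 0.23 and 0.18, and the groups overlapped for the dimmest. With all probe sets tested separately, the adjusted p of the third was 0.525 in limma.

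**Figure D2:**
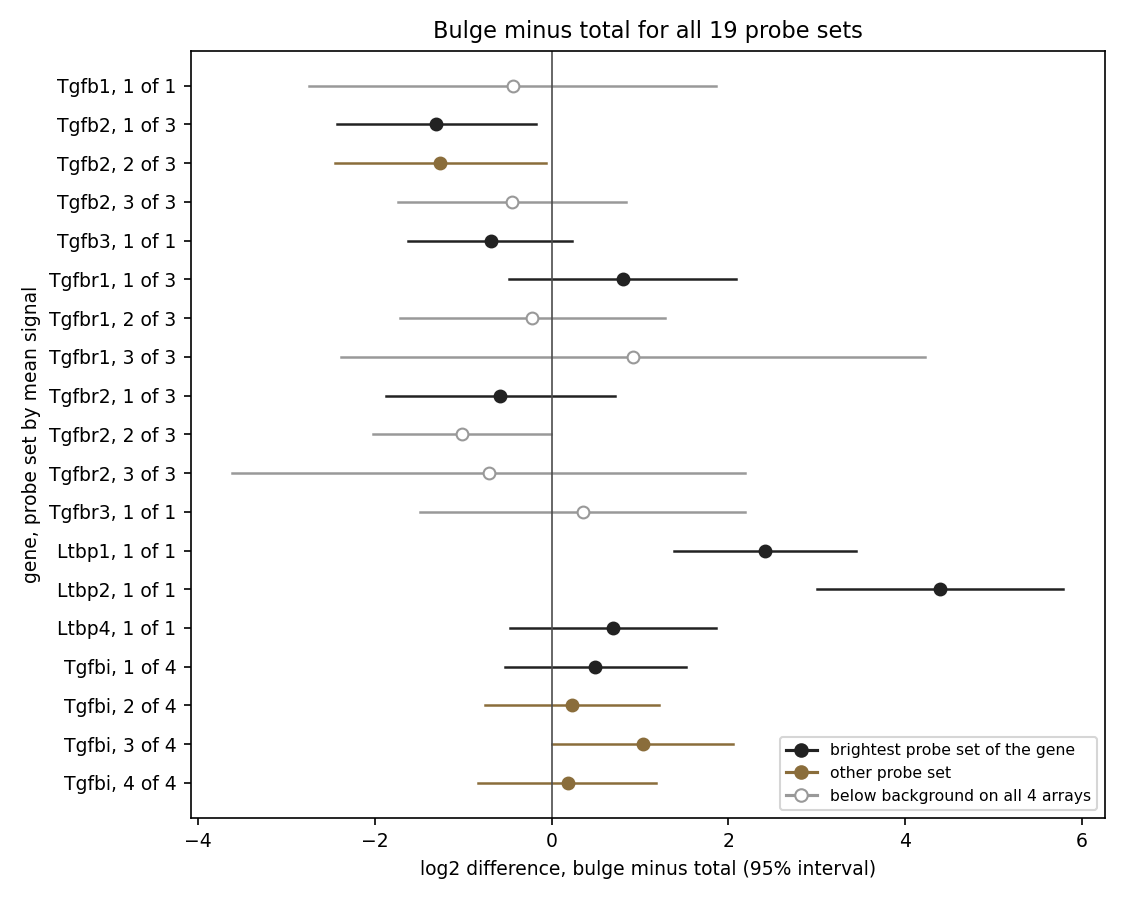
Log2 difference, bulge minus total (x axis), with its 95% interval, for the 19 probe sets of the 10 genes (y axis, ordered within a gene by mean signal). Filled points were above background on at least 1 array and open grey points on none. The Ltbp1 and Ltbp2 intervals lie above 0, and those of the first 2 Tgfb2 probe sets and of the second Tgfbr2 probe set, itself below background on all 4 arrays, lie below it, before adjustment for the number of genes tested.

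Other genes of the pathway were read from 5 lists of 103 genes, of which 92 were measured and 68 were above background on at least 1 array. The fit without a trend called 0 of the 92, with 22 at an unadjusted p under 0.05, where 10.5% of all genes were. In the trended fit 3 rose and 1 fell, 4.35% of the 92 beside 1.08% of all genes. The lists were chosen with earlier results of these data known, so the shares of the 92 are not an independent comparison. Groups did not overlap for 32 higher genes of the 92 (18.0% of all genes) and 14 lower ones (20.5% of all genes), and the median difference was 0.28.

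The matrix scaffold list, fibrillins, fibulins and other proteins of the fibres that hold latent complexes, had a median difference of -0.03, and 2 genes rose, 1 fell and the other 11 were not called. Adamtsl4, which encodes a fibrillin-binding ADAMTS-like protein, had signals of 990.8 and 1023.5 on the bulge arrays and 131.7 and 108.2 on the total arrays. It rose at least 6.95-fold (trended limma adjusted p 0.0297).

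Fbln1, the fibulin-1 gene, had 1117.1 and 912.4 on the bulge arrays and 168.3 and 211.3 on the total arrays. It rose 5.35-fold (trended limma adjusted p 0.0442), with 3.11 on the log2 scale for its other probe set. Efemp1, the fibulin-3 gene, had 182.7 and 154.0 on the bulge arrays and 3247.7 and 1475.3 on the total arrays. It fell by 3.71 on the log2 scale (trended limma adjusted p 0.0339), so fibulin genes of 1 list changed in opposite directions.

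Among 24 accessory and signalling genes, Bambi, which encodes a decoy receptor for TGF-β and BMP ligands, rose, and the other 23 did not pass. Bambi had signals of 266.1 and 321.5 on the bulge arrays and 7.9 and 13.1 on the total arrays. It rose at least 2.02-fold, since both total arrays were below background (trended limma adjusted p 0.0297). The list median was 0.14.

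Smad7, the gene of the inhibitory SMAD induced by TGF-β, did not pass and is named after its values were seen. It had 892.8 and 884.6 on the bulge arrays and 330.8 and 322.5 on the total arrays, a 2.72-fold higher mean with a limma adjusted p of 0.231. Its replicates were close together in both groups.

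Latent TGF-β activation genes had 0 of 16 called and a median difference of 0.10. The 2 brightest were Mmp2, a gelatinase gene, and Itgav, the gene of the αV integrin subunit that activates latent TGF-β. Mmp2 had signals of 10597.2 and 11413.3 on the bulge arrays and 3173.5 and 6360.5 on the total arrays, with a difference of 1.29 for each of its 2 probe sets. Itgav had 4688.5 and 7577.0 on the bulge arrays and 4813.9 and 3761.9 on the total arrays, which overlapped.

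The activin branch, ligands and receptors that also signal through SMAD2 and SMAD3, had 0 of 14 called and a median of 0.28. Fst, the gene of the activin antagonist follistatin, had 17792.5 and 9727.4 on the bulge arrays and 3585.4 and 2692.4 on the total arrays, a difference of 2.08 with a limma adjusted p of 0.186. The activin type I receptor gene Acvr1b had 1381.9 and 1047.4 on the bulge arrays and 1318.5 and 1089.6 on the total arrays, a difference of 0.01.

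Genes known as TGF-β targets had 0 of 24 called and a median difference of 0.62, with 7 higher (18.0% of all genes) and 4 lower (20.5% of all genes) without overlap of the groups. Ccn2, the connective tissue growth factor gene, had 22723.0 and 16236.0 on the bulge arrays and 4843.0 and 2980.9 on the total arrays. The groups were well apart, with a difference of 2.34 ± 0.45 (SE) and a limma adjusted p of 0.141. Col7a1, the gene of anchoring fibril collagen, had 5572.5 and 2788.3 on the bulge arrays and 2802.3 and 2233.2 on the total arrays, which overlapped.

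**Figure D3:**
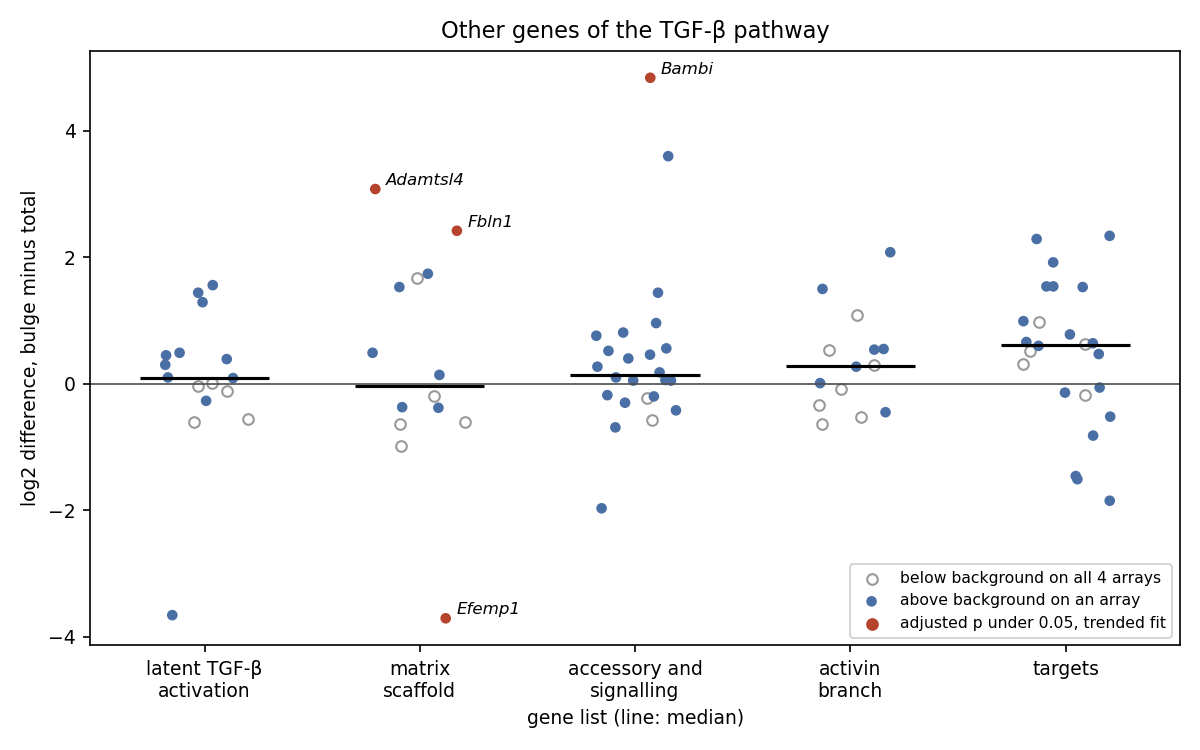
Log2 difference, bulge minus total (y axis), for each measured gene of 5 pathway lists (x axis), with a line at each list's median. Red points were called in the trended limma fit (Adamtsl4, Fbln1, Bambi and Efemp1), blue points did not pass but were above background on at least 1 array, and open points were below background on all 4.

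The profiles most like those of Ltbp2 and Tgfb2 were sought among 7321 other genes with a group mean above background, by the Euclidean distance between log2 values centred on each gene's mean over the 4 arrays. For Ltbp2 they were Irx4 (distance 0.638), an Iroquois homeobox gene, Gfra1 (0.699), a GDNF family receptor gene, and Kcnc4 (0.849), a potassium channel gene. All 3 were below background on both total arrays, so their fitted differences of 4.53, 4.50 and 3.56 have only bounds of at least 1.47, 1.26 and 1.5-fold. For Tgfb2 they were Acer2 (0.107), an alkaline ceramidase gene, Mpp6 (0.175), a membrane scaffold gene, and Frmd6 (0.178), a FERM domain gene, with differences of -1.26, -1.17 and -1.37. Frmd6 had signals of 2434.9 and 1940.6 on the bulge arrays and 6638.4 and 4745.5 on the total arrays. With 4 arrays, many genes can share a profile.

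**Figure D4:**
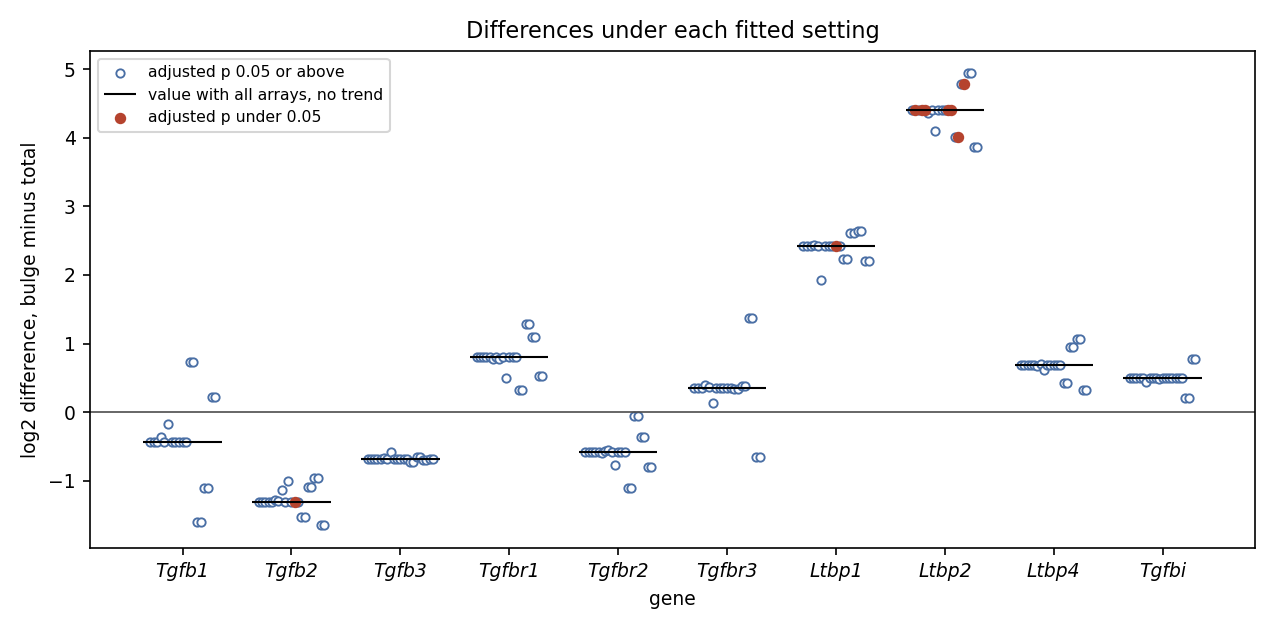
Log2 difference, bulge minus total (y axis), of the 10 genes (x axis) under each fitted setting, among them other variance models, normalizations, probe set rules and each array left out. Red points have an adjusted p under 0.05, and the black line is the value with all arrays and no trend. Ltbp2 lay between 3.86 and 4.94 and Ltbp1 between 1.93 and 2.64, while Tgfb1 and Tgfbr3 had values on both sides of 0.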

How the data were processed

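The deposited table holds probe set intensity on a linear scale, with a mean of 500.0 on every array after trimming 2% at each end. Tools listed in the submitters' processing notes are RMA, affy 1.36, R 2.15.1 and GCOS, without their roles, and unequal medians (126.7 to 128.8 on the bulge arrays, 123.6 to 145.0 on the total arrays) leave the tool that made the values not given in the sources used here. Amplification by oligo-dT T7 priming started from 200 ng of RNA, per the labels' protocols.

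Log2 of the intensity was taken. Of 22690 probe sets, 64 controls, 691 with several symbols and 1555 with none were left out, and 20351 of 20380 matched RefSeq by Entrez ID. Tests used limma 3.58.1 under R 4.3.3, lmFit then eBayes with group as the only term, tested on simulated data. The number of arrays limits the precision. Genes named beyond the 10 were, per list, up to 4 in each direction with adjusted p under 0.05 in the plain or trended fit, or the 2 brightest. Genes, lists and settings were chosen with earlier results of these data known.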

Additional observations from a re-analysis of the deposited data

How the results depend on the processing

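The fit without a trend called 0 of the 10 genes, 0 of the 92 pathway genes and 0 of all genes. With an intensity trend it called 1 of the 10 higher, 4 pathway genes and 134 genes in all. After the filter on dim genes the counts were 1, 4 and 142, with filter and trend together 1, 5 and 143, and with 32 added to the signal 0, 2 and 37. Ltbp2, the gene of the 10 called after the filter, passed it through its bulge arrays. With all probe sets and a trend, a setting chosen after seeing the data, the counts were 1, 3 and 103. A robust variance, quantile normalization, median centring, the mean of probe sets, all probe sets without a trend and a threshold of 0.01 left all counts at 0. Leaving out each array in turn gave 0 to 0 calls without a trend and, with a trend, 0 to 1 of the 10 higher, 0 to 0 lower, 0 to 12 pathway genes and 0 to 388 genes. The trended counts were 0 without either total array, and 7 to 12 pathway genes and 350 to 388 genes without a bulge array. With 1 array left in a group, its spread is taken from the intact pair.

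Replicates share numbers across groups, and replicate differences correlated at r = 0.625 between the groups, but no label says that the numbers pair the samples. With the replicate block, 0 genes were called without a trend. With the replicate block and a trend, 2 of the 10 were called higher (Ltbp1 and Ltbp2) and 1 lower (Tgfb2, adjusted p 0.0451), with 20 pathway genes and 917 genes in all. The Tgfb1 difference turned to 0.73 without bulge replicate 1 and 0.22 without total replicate 2, and that of Tgfbr3 to -0.66 without total replicate 2, in both fits. Over the arrays left out, Tgfb1 ran from -1.61 to 0.73 and Tgfbr3 from -0.66 to 1.37. The other 8 genes kept their sign in every setting fitted. Signals near or below background limit Tgfb1, Tgfb2, Tgfb3, Tgfbr3 and Ltbp1. They also limit the total group of Ltbp2, whose total replicate 2 was below background, so its fold is a bound. The cause of the changes between settings was not tested.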

Other observations

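Several pathway genes outside the naming rule had an unadjusted limma p under 0.05 and did not pass after adjustment. They are named after their values were seen. Dab2, which encodes an endocytic adaptor that binds SMAD proteins, had signals of 4017.0 and 1362.2 on the bulge arrays and 225.9 and 164.3 on the total arrays. Its mean was 12.1-fold higher in bulge cells, with a trended limma adjusted p of 0.0509. The other Dab2 probe sets gave log2 differences of 2.16 and -0.16, and the one with -0.16 was below background on all 4 arrays. Tnc, the tenascin-C gene, had 812.1 and 387.1 on the bulge arrays and 116.2 and 113.5 on the total arrays, at least 3.87-fold higher. Ptprk, a receptor phosphatase gene, had 5209.7 and 2559.3 on the bulge arrays and 1205.8 and 770.5 on the total arrays.

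Other genes of the pathway lists were lower in bulge cells without passing. Pmepa1, a target gene which encodes a membrane protein that restrains TGF-β signalling, had 60.3 and 69.6 on the bulge arrays and 221.4 and 154.3 on the total arrays, at least 1.28-fold lower, and its other probe sets gave -0.15 and -0.19. Bhlhe40, a transcription factor gene of the target list, had 418.4 and 305.9 on the bulge arrays and 773.6 and 2163.9 on the total arrays. Mmp9, a gelatinase gene of the activation list that is also expressed by myeloid cells, had 11.5 and 86.6 on the bulge arrays and 358.9 and 442.4 on the total arrays, at least 2.75-fold lower. Myeloid marker signal was lower on the same bulge arrays, and its part in the Mmp9 difference was not tested.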
